A study of Homo sapiens with 6 samples.

Results

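The genes described here are 40 members of the integrated stress response and of the amino acid programme run by its transcription factor ATF4. They were taken as the rows of the deposited expression table whose gene symbol was exactly a member's, which gave 40 of 31628 genes. By role they comprise 11 stress regulators and stress effectors, 6 genes of serine and one-carbon metabolism, 5 genes of other amino acid synthesis, 7 amino acid transporters and 11 genes of tRNA charging and export. Older synthetase symbols such as MARS are kept as the table has them.

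RNA-seq was done in HCT116, a human colon cancer line, as ENL-AID cells. In these cells ENL, the product of MLLT1 and a reader of acetylated histones, carries an auxin-inducible degron, and the stably expressed plant protein AtAFB2 recruits a ubiquitin ligase to the degron once auxin is bound. There were 3 groups of 2 libraries. Control cells were left without auxin, IAA cells had auxin (indole-3-acetic acid) at a dose labelled 500 um for 3 h, and washout cells had the same IAA, were then washed with PBS and kept 48 h without it. All groups carry the degron and AtAFB2, came through puromycin and blasticidin selection of AID clones, and grew in RPMI1640 with fetal bovine serum. The labels do not say whether the cells are 1 clone, and no group analysed here had IAA without the degron or AtAFB2, so loss of ENL and other effects of IAA cannot be told apart. Washout libraries also differ from the rest by the later harvest and the wash. ENL protein was not measured here. The labels do not say that replicates came from separate cultures, so p-values measure only the spread between these samples, which may be technical.

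The integrated stress response begins when a kinase such as PERK or GCN2 phosphorylates the translation factor eIF2, which slows most protein synthesis and favours translation of ATF4. ATF4 then activates genes that import and make amino acids, charge tRNAs, and, through PPP1R15A, dephosphorylate eIF2. ATF4 binds with C/EBP proteins to a composite DNA element whose core is TGATGNAA. In colon cancer cells the same genes are known to serve growth as well as stress defence. Transcript levels show neither eIF2 phosphorylation nor ATF4 protein, and in RNA from whole cultures fewer cells with a transcript and less of it per cell cannot be told apart.

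The sequences around that core are shown because they link members of different roles. Promoter windows of 250 bases before to 50 after the start were taken from RefSeq (GRCh38.p14) for the 30 members found there, 7 of them by a newer symbol. The 8 letters TGATGNAA, searched on both strands, were present in 11 of the 30 windows (36.7%), in 4.46% of the windows of 27305 genes, and in 1.94% of those of 4952 genes that passed the expression filter. Genes became known as ATF4 targets partly through such elements, so these shares are a description of the members and no independent evidence. The 4 members with the largest called rises that hold the core are CHAC1, SLC3A2, ASNS and PPP1R15B. Of the 11 members called up with IAA, all of them with a window, 5 held the core. So did 6 of the 19 other members with a window. STC2, PPP1R15A and DDIT3, which rose more, had windows without it. The 11 matches follow, 5′ to 3′ on the strand that reads TGATGNAA, with the core in capitals.
CHAC1, chr15:40953251-40953280, minus strand: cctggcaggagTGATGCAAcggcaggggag
PPP1R15B, chr1:204412026-204412055, minus strand: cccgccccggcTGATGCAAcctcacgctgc
ASNS, chr7:97872458-97872487, minus strand: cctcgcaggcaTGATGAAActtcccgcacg
SLC3A2, chr11:62881725-62881748, minus strand: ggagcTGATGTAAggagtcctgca
SLC7A1, chr13:29595663-29595692, minus strand: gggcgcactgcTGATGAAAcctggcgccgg
SLC1A5, chr19:46784893-46784922, minus strand: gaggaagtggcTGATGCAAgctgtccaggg
AARS, chr16:70289675-70289704, plus strand: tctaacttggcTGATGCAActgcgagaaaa
CARS, chr11:3057407-3057436, plus strand: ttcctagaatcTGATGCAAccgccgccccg
IARS, chr9:92293692-92293721, plus strand: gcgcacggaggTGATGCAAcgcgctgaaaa
MARS, chr12:57488053-57488082, minus strand: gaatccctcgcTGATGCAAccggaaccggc
NARS, chr18:57621804-57621833, minus strand: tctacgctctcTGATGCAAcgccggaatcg

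The same word, TGATGCAA, was found in 8 of the 11: CHAC1, PPP1R15B, SLC1A5 and the synthetases AARS, CARS, IARS, MARS and NARS. ASNS and SLC7A1 had TGATGAAA, and SLC3A2 had TGATGTAA. Of 7 synthetases with a window 5 held the core, against 0 of 3 genes of serine and one-carbon metabolism. Counted from the start base as 0, the core began at -209 in CHAC1, -227 in PPP1R15B, -187 in AARS, -97 in SLC1A5 and -68 in ASNS. It lay at or near the start in CARS (-2 to 5), MARS (-4 to 3) and IARS (-13 to -6), and after the start in SLC7A1, NARS and SLC3A2. A match is a run of letters, not a shown binding site, and a window without one says only that these letters are absent from it. In the upstream 250 bases below, ATF4 itself has no match, and CHAC1, PPP1R15B and ASNS show where the core (capitals, as either TGATGNAA or its reverse complement TTNCATCA) sits in its promoter.
ATF4, chr22:39520309-39520558, plus strand: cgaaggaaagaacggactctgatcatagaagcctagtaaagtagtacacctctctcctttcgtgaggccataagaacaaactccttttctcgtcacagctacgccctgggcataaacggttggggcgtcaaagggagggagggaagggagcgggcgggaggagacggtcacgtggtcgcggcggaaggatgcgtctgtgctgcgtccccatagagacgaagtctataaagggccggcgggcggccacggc
CHAC1, chr15:40953221-40953470, plus strand: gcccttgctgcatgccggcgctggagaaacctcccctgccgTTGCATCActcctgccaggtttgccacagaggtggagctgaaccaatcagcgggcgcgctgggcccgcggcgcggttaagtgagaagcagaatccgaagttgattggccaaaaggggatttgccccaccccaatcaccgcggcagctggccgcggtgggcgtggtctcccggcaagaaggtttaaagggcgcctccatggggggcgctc
PPP1R15B, chr1:204411818-204412067, minus strand: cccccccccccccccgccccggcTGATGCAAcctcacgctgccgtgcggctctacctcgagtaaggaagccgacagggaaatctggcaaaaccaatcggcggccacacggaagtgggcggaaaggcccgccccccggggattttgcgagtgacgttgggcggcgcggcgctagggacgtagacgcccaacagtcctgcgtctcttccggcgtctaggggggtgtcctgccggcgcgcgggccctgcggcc
ASNS, chr7:97872409-97872658, minus strand: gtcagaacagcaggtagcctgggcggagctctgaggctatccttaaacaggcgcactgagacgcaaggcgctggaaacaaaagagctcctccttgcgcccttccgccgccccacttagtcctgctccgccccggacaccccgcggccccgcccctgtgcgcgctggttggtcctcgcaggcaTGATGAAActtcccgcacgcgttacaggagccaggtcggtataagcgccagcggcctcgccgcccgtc

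**Figure D1:**
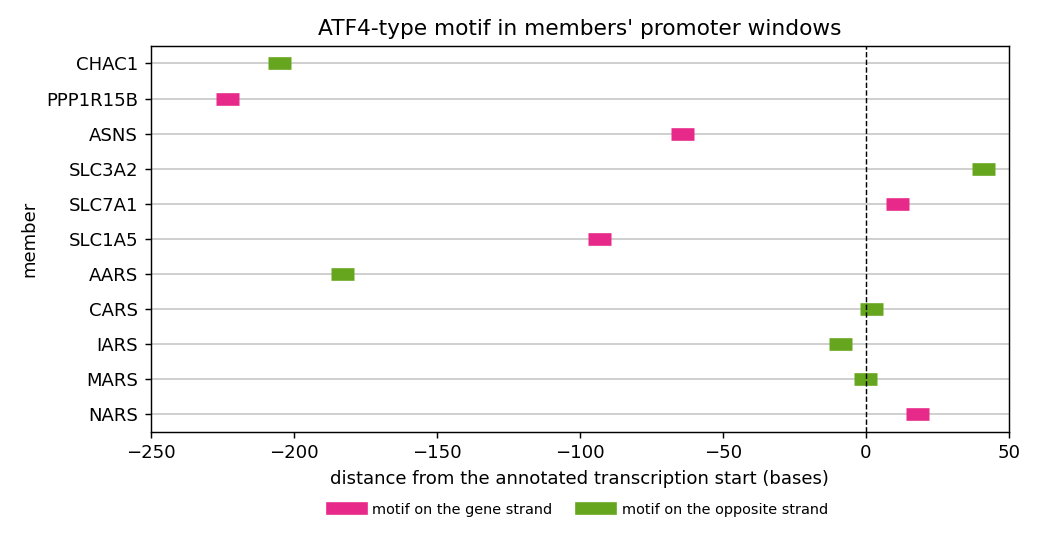
Position of each TGATGNAA match (horizontal axis, bases from the annotated start) in the 11 members that hold one, 1 row a member, coloured by whether the match reads along the gene strand or the opposite strand. CHAC1, PPP1R15B and AARS have it far upstream, and 6 members have it within 50 bases of the start on either side.

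Library totals worked out from the values lay between 16442840 and 16770850 reads, with 18474 to 18853 genes above 0 in each. Levels were deposited as FPKM (fragments per kilobase and library size), whose length here is the whole gene span with introns, so long genes have low FPKM whatever their read number. The 8317 genes that averaged 1 FPKM or more were tested with limma on log2(FPKM + 1), with p-values adjusted by Benjamini-Hochberg over all of them, and a call is an adjusted p under 0.05. Log2 changes below are on that scale unless recovered reads are named, and a fold divides 2 group means of FPKM. An error given with FPKM is the SD over n = 2 libraries, and one given with a log2 change is its SE. The added 1 shrinks log2 changes of genes at low FPKM, which also lowers medians over such genes. DDIT3, for example, changed with IAA by 0.79 on this scale and by 1.01 on recovered reads. Of 10 colon epithelium markers 7 passed the filter, with KRT18 and KRT19 the highest in FPKM, while CDX1 and CEACAM5 had 0 reads in all libraries. The summed FPKM of the 10 was 336 and 346 in the control pair, 272 and 268 in the IAA pair, and 324 and 340 in the washout pair. The sum was carried by KRT8, KRT18 and KRT19, which fell with IAA to between 0.768 and 0.804 times control (limma, adjusted p from 0.0137 to 0.0228). The list did not move one way: on recovered reads 4 of 7 fell, while CDX2 (1.34 times control, voom adjusted p = 0.00892) and VIL1 (1.24 times, voom adjusted p = 0.0121) rose. Over all genes on recovered reads 10.9% fell and 14.8% rose. The part of these markers in the results below was not tested. Of 11 fibroblast, endothelial and blood markers none passed the filter, and their summed FPKM was 0.657 to 1.02 per library. Most of that sum was COL1A1, with 158 to 230 reads per library. COL1A1 was at 1.31 times control with IAA and 1.4 times after washout (voom adjusted p = 0.0752 and 0.171). MLLT1, the source of ENL, had 459 and 480 reads in the control pair, 445 and 402 in the IAA pair, and 463 and 428 in the washout pair, which is no check of the labels because the degron acts on the protein.

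Of the 40 members 32 passed the filter. Those below it were SESN2, SLC7A11, CTH, SLC6A9, ALDH1L2, NUPR1, CBS and VLDLR. A filter on FPKM keeps short genes more easily than long ones, and SLC7A11 was left out with over 800 reads in each library. Whole reads were therefore also recovered from the FPKM values and tested with limma's voom for genes with a mean of at least 20 reads (13995 genes, 36 members). Results from recovered reads are named as such.

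Among members, levels can be set side by side only per exon length, here as RPKM computed from the recovered reads and the exon length in place of the gene span. That length joins all annotated exons of a gene, so genes with many annotated exons may be placed too low in the order. In control SLC7A5, the leucine transporter LAT1, was the highest at 156 ± 6.76, followed by the glutamine and alanine transporter SLC38A2 at 109 ± 2.49 and ATF4 at 104 ± 3.62 (SD, n = 2). The last pair differed by less than the sum of their SDs. SLC1A5, a glutamine transporter, came next at 90.5, then PYCR1, which makes proline, at 78.4 and the asparaginyl-tRNA synthetase NARS at 74.2. Of the stress regulators and effectors, STC2 was at 27.2 in control, PPP1R15A at 16.6, DDIT3 at 7.63, SESN2 at 4.68 and CHAC1 at 3.28. Others of that role were PPP1R15B at 38.9, EIF4EBP1 at 33.3 and ATF5 at 11.2. Low control levels were not particular to this role. The transporter SLC7A11 was at 6.58, PHGDH at 12.3, CARS at 8.38 and CTH at 4.31. NUPR1, CBS, VLDLR and ALDH1L2 were at 0.123 or less. With IAA the order near the top changed, with SLC7A5 at 226, ATF4 at 145, SLC1A5 at 103, the transporter heavy chain SLC3A2 at 81.4, NARS at 79.7 and SLC38A2 at 75.4. After washout SLC7A5 (142), SLC38A2 (98.4) and ATF4 (93.9) again led. These levels leave out reads listed under pseudogene copies of members. Copies held 57.4% of the joint reads for PSAT1, 55.9% for XPOT, 42.9% for MTHFD2 and 22.2% for ATF4. The order with copies included may differ and was not worked out.

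**Figure D2:**
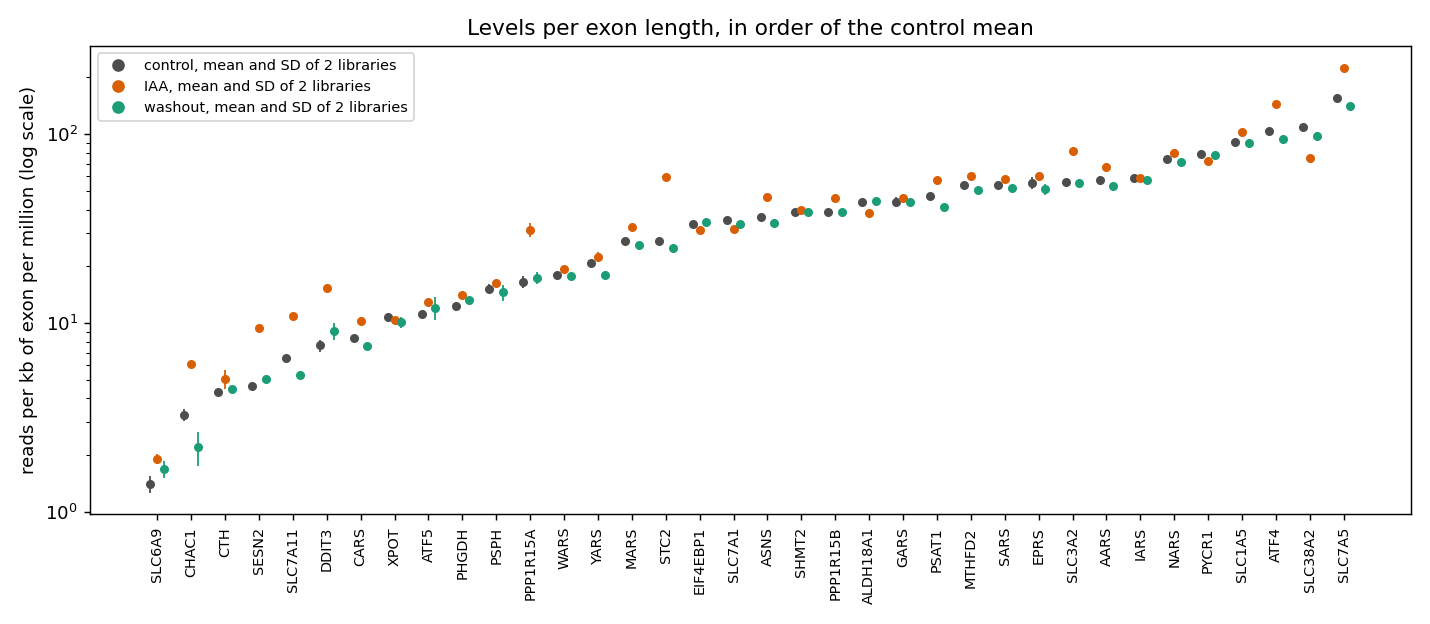
Level as RPKM on exon length (logarithmic axis) of the 36 members with a mean of at least 20 reads, in the order of the control mean, with points for the group mean and bars for the SD of 2 libraries. SLC7A5 leads in control, IAA and washout, at 156, 226 and 142.

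In IAA against control, 11 of the 32 tested members rose, 1 fell and 20 were not called. Over all genes tested 6.64% rose and 6.49% fell. The members' median log2 change was 0.13, with 25 above 0 and 7 below, against 0.01 over all genes. Of all 8317 tested genes 4518 lay above 0 and 3799 below. In 22 of the 32 both IAA libraries were higher than both control libraries and in 5 both were lower, where 33.7% and 28.2% of all tested genes lay so. The members that rose were STC2, PPP1R15A, DDIT3, CHAC1, SLC7A5, SLC3A2, ATF4, ASNS, PPP1R15B, PSAT1 and CARS, and SLC38A2 fell. On recovered reads 19 of 36 rose and 3 fell, where 14.8% of all genes rose and 10.9% fell, 25.7% together. Rescaling FPKM to TPM moved the direction of the calls over all genes from 552 up and 540 down to 405 up and 636 down, with 9 members up and 2 down, as PSAT1 and CARS were no longer called and ALDH18A1 was called lower. With 2 libraries a group the calls rest on a spread shared by all 6 libraries. Without any 1 of the control and IAA libraries 1 member was called up (STC2) and 0 down, and without either washout library 8 were called up and 1 down.

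**Figure D3:**
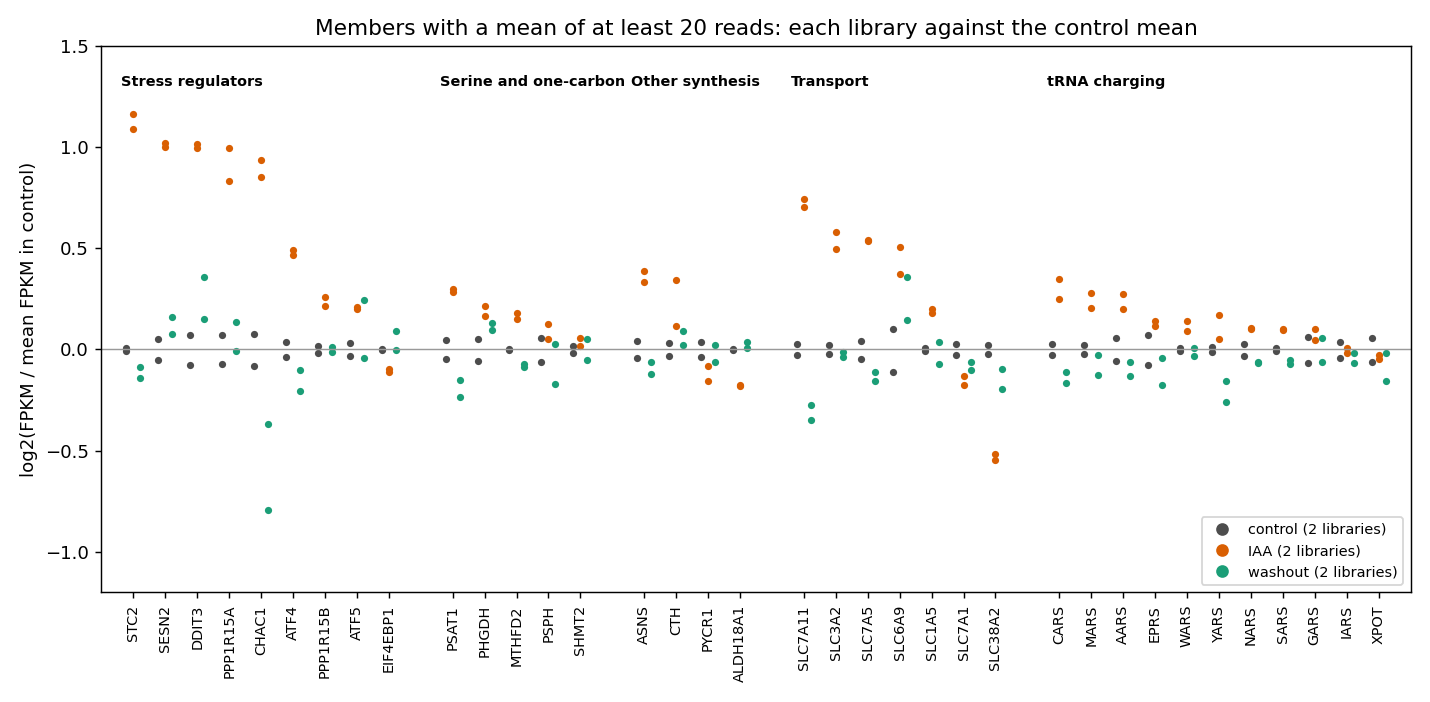
Log2 ratio of FPKM in each library to the mean FPKM in control (vertical axis), 1 column of points for each of the 36 members with a mean of at least 20 reads, grouped by role and coloured by group. Both IAA points lie near 1 or above for STC2, SESN2 and DDIT3 and far below 0 for SLC38A2, and both washout points of CHAC1 and SLC7A11 lie below their control points.

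The stress regulators moved most: 6 of 8 tested rose, 0 fell, and their median log2 change was 0.56. ATF4 (ENSG00000128272.10) had 85.4 and 89.7 FPKM in the control pair, 123 and 121 in the IAA pair, and 76.1 and 81.7 in the washout pair. Both IAA libraries were above all others. It rose by 0.47 ± 0.0514 on the log2 scale, 1.39-fold (limma, adjusted p = 0.0132). DDIT3 (ENSG00000175197.6), which encodes the transcription factor CHOP, had 2.4 and 2.67 in the control pair, 5.14 and 5.07 in the IAA pair, and 2.82 and 3.26 in the washout pair. The IAA libraries stood apart and the washout pair lay just above the control pair. DDIT3 rose 2.01-fold, by 0.79 ± 0.0686 (limma, adjusted p = 0.00941).

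CHAC1 (ENSG00000128965.7), an enzyme that breaks down glutathione, had 2 and 1.8 FPKM in the control pair, 3.63 and 3.43 in the IAA pair, and 1.1 and 1.47 in the washout pair. The groups did not overlap, with washout the lowest. CHAC1 rose 1.86-fold, by 0.64 ± 0.0911 (limma, adjusted p = 0.0204). STC2 (ENSG00000113739.6), a secreted glycoprotein induced by stress, had 11.3 and 11.2 in the control pair, 25.3 and 24 in the IAA pair, and 10.2 and 10.6 in the washout pair. Both IAA libraries lay far above the other 4, which differed little. STC2 rose 2.18-fold, by 1.06 ± 0.0439 (limma, adjusted p = 0.00204), the largest called log2 rise among the tested members and the 1 call that remained with each of the 6 libraries left out in turn (highest adjusted p = 0.0363).

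PPP1R15A (ENSG00000087074.7), or GADD34, is the inducible subunit that directs a phosphatase to eIF2. Its FPKM was 13.3 and 14.7 in the control pair, 27.9 and 24.9 in the IAA pair, and 15.4 and 13.9 in the washout pair. The IAA pair stood above 4 libraries that overlapped each other. PPP1R15A rose 1.89-fold, by 0.87 ± 0.0862 (limma, adjusted p = 0.0111). Its constitutive partner gene PPP1R15B went from 24.2 ± 0.373 to 28.6 ± 0.632 and rose 1.18-fold (limma, adjusted p = 0.0288). The 2 stress regulators tested and not called were ATF5, a relative of ATF4, at 6.34 and 7.31 (limma, adjusted p = 0.241), and EIF4EBP1, an inhibitor of cap-dependent translation, at 1.19 and 1.11 (limma, adjusted p = 0.358). SESN2, an inhibitor of mTORC1 that senses leucine, had 278 and 261 reads in the control pair, 539 and 542 in the IAA pair, and 285 and 301 in the washout pair. On recovered reads it rose 2.02-fold (voom log2 change 1.01, adjusted p = 7.8e-10). NUPR1 had at most 9 recovered reads and VLDLR at most 2 reads in any library, which is too few to compare. The NUPR1 reads were the closest whole solution to its span and all multiples of 3, so the true numbers may be lower.

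**Figure D4:**
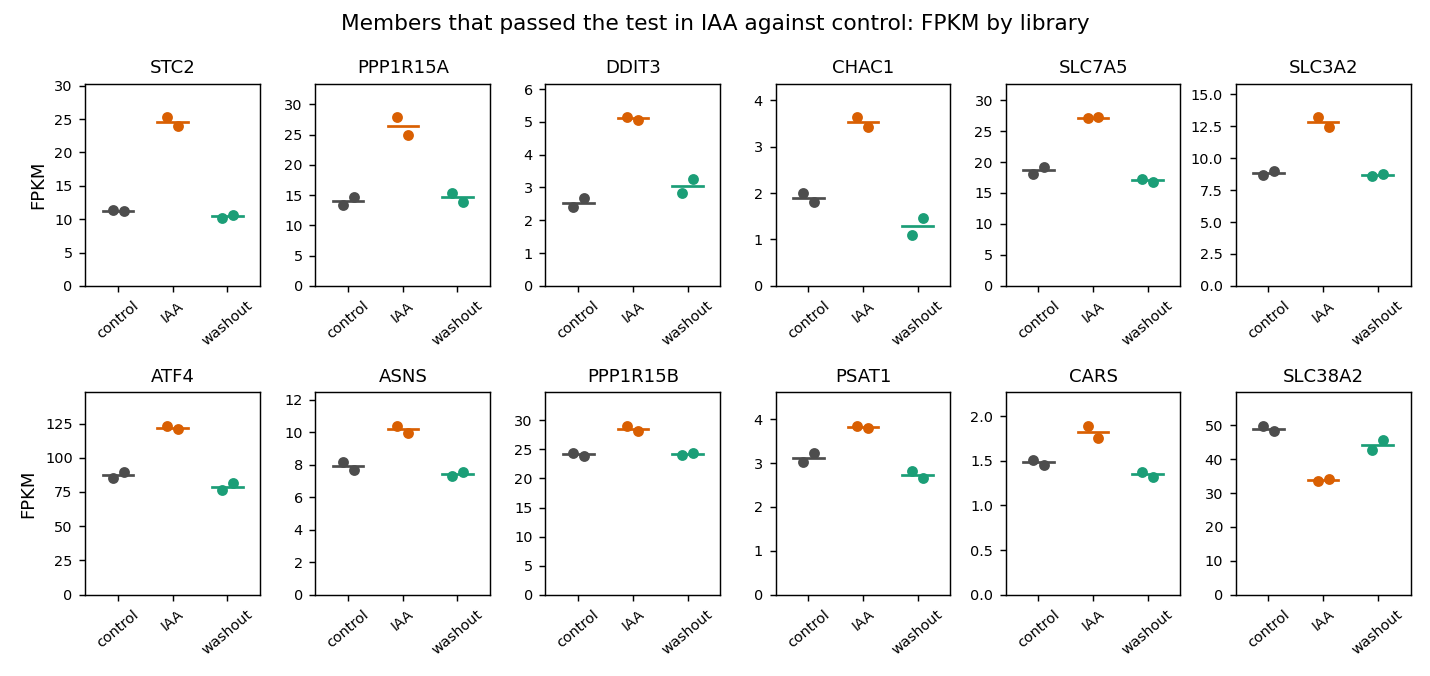
FPKM of the 12 members called in IAA against control, 1 panel a gene, with each library as a point, the mean of 2 libraries as a line and each axis from 0. In 11 panels both IAA points lie above the control and washout points, and for SLC38A2 (33.5 and 34.3 against 42.8 to 49.8) they lie below.

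Among the transporters 2 rose and 1 fell of 5 tested. SLC7A5 (ENSG00000103257.4) pairs with the heavy chain SLC3A2 to bring in leucine and other large neutral amino acids. Its FPKM was 18.1 and 19.3 in the control pair, 27.1 and 27.2 in the IAA pair, and 17.3 and 16.8 in the washout pair. SLC3A2 (ENSG00000168003.12) had 8.71 and 8.97, 13.2 and 12.5, and 8.62 and 8.76 in the same order. In both genes the IAA libraries lay above all others. Each partner rose 1.45-fold, SLC7A5 by 0.52 ± 0.0457 and SLC3A2 by 0.49 ± 0.0437 (limma, adjusted p = 0.00966 for each). SLC38A2 (ENSG00000134294.9) encodes SNAT2, which takes up glutamine and alanine and is known to be induced when amino acids are short. It had 49.8 and 48.2 in the control pair, 33.5 and 34.3 in the IAA pair, and 42.8 and 45.7 in the washout pair. It was the 1 tested member called lower, at 0.692 times control, with a log2 change of -0.52 ± 0.0486 (limma, adjusted p = 0.0104).

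The other transporters divided. SLC7A11, the cystine and glutamate exchanger xCT, whose heavy chain is also SLC3A2, had 1074 and 1043 reads in the control pair, 1746 and 1733 in the IAA pair, and 876 and 829 in the washout pair. On recovered reads it rose 1.65-fold (voom log2 change 0.72, adjusted p = 1.92e-12). SLC1A5 was at an FPKM of 22.1 and 21.9 in the control pair and 25 and 25.3 in the IAA pair, which limma on FPKM did not call (adjusted p = 0.0738) and voom on recovered reads did (adjusted p = 0.000394). SLC7A1, the arginine and lysine transporter CAT1, was at 3.2 and 3.09 against 2.87 and 2.78 and was likewise called, as lower, by voom alone (limma adjusted p = 0.101, voom adjusted p = 0.00611). SLC6A9, a glycine transporter with 113 to 170 reads per library, was not called (voom adjusted p = 0.0632).

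Of 5 tested genes of serine and one-carbon metabolism 1 rose, and the median log2 change was 0.11. PSAT1 (ENSG00000135069.9), the aminotransferase of serine synthesis, had 3.03 and 3.23 FPKM in the control pair, 3.84 and 3.81 in the IAA pair, and 2.82 and 2.66 in the washout pair. The 3 groups did not overlap. PSAT1 rose 1.22-fold, by 0.23 ± 0.0425 (limma, adjusted p = 0.0365). PHGDH, which starts the serine pathway, was 1.14 times control and MTHFD2, a mitochondrial folate enzyme, 1.12 times. Neither passed limma on FPKM (adjusted p = 0.131 and 0.056), and both passed voom on recovered reads (adjusted p = 0.00842 and 0.00242). PSPH, the last enzyme of serine synthesis (1.06 times, limma adjusted p = 0.579), and SHMT2, which moves a carbon from serine to folate (1.02 times, limma adjusted p = 0.684), had overlapping groups. ALDH1L2, another mitochondrial folate enzyme, had 11 to 24 reads per library and was not tested.

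In other amino acid synthesis 1 of 3 tested genes rose. ASNS (ENSG00000070669.12), which makes asparagine from aspartate and glutamine, had 8.15 and 7.69 FPKM in the control pair, 10.4 and 9.97 in the IAA pair, and 7.29 and 7.58 in the washout pair. Both IAA libraries were above all others. ASNS rose 1.28-fold, by 0.33 ± 0.0466 (limma, adjusted p = 0.0212). The 2 proline genes lay the other way. ALDH18A1, which makes the proline precursor, was at 3.22 and 3.24 against 2.87 and 2.86 with IAA (0.885 times, limma adjusted p = 0.0557, voom adjusted p = 0.00662), and PYCR1 was at 22 and 23.1 against 21.3 and 20.3 (0.921 times, limma adjusted p = 0.216, voom adjusted p = 0.0562). CTH, which makes cysteine from cystathionine, had 169 and 178 reads in the control pair and 217 and 189 in the IAA pair (voom adjusted p = 0.299). CBS, the enzyme before it, had at most 3 reads in any library.

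All 11 genes of tRNA charging and export were tested, and CARS, the cysteinyl-tRNA synthetase, was the 1 that rose. CARS had 1.51 and 1.46 FPKM in the control pair, 1.89 and 1.76 in the IAA pair, and 1.37 and 1.32 in the washout pair, a 1.23-fold rise with IAA (limma, adjusted p = 0.0486). The role's median log2 change was 0.09, with 9 of 11 above 0. AARS, for alanine, and MARS, for methionine, were each 1.18 times control (limma adjusted p = 0.0711 and 0.056, voom adjusted p = 5.95e-05 and 0.000112). EPRS, for glutamate and proline, was 1.09 times control and passed voom alone (limma adjusted p = 0.298, voom adjusted p = 0.0279). The synthetases NARS, SARS, WARS, YARS and GARS lay between 1.05 and 1.08 times control, IARS for isoleucine at 0.997 and the tRNA exporter XPOT at 0.974, and none of the 7 was called by limma (adjusted p from 0.156 to 0.965).

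**Figure D5:**
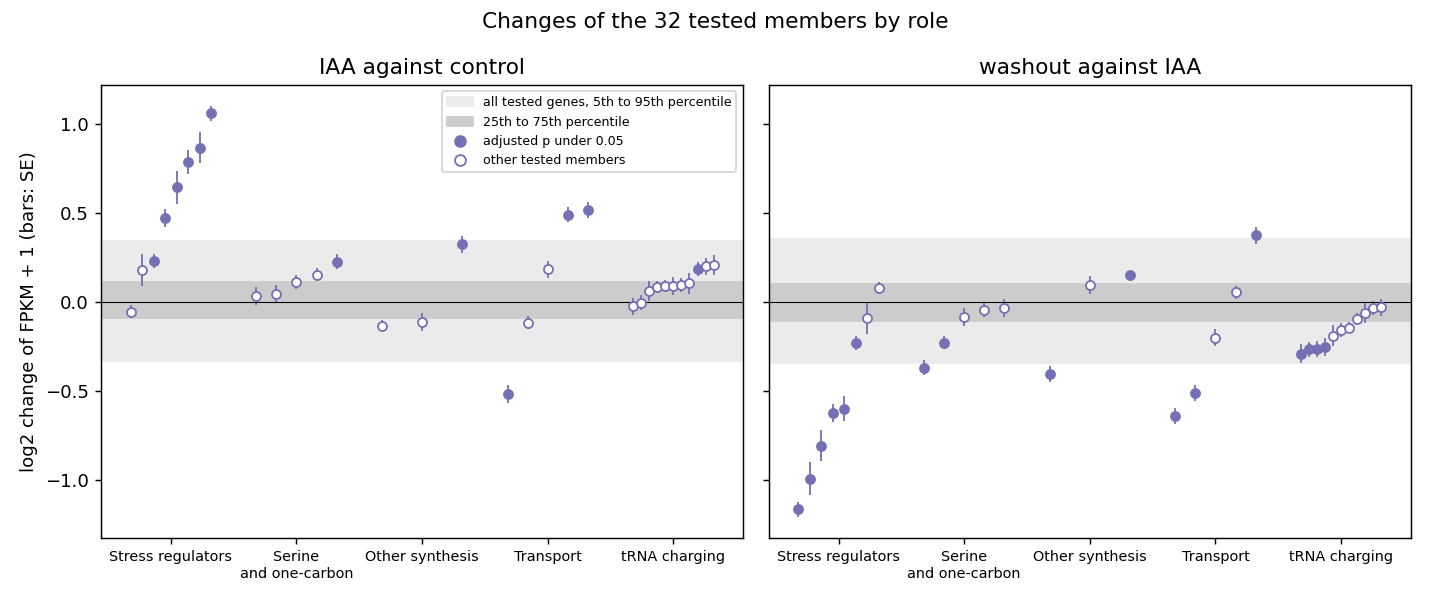
Log2 change of FPKM + 1 of each of the 32 tested members, by role, in IAA against control and washout against IAA, with SE as bars, filled points for an adjusted p under 0.05 and grey bands for the 5th to 95th and 25th to 75th percentiles of all tested genes. The stress regulators reach the largest values, STC2 at 1.06 and -1.17, and the tRNA charging genes lie inside the wider band.

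In washout against IAA, 15 of 32 tested members fell and 2 rose. Over all genes tested 6.65% fell and 7.73% rose. The median log2 change of the members was -0.20, with 27 below 0, and that of all genes was 0.00. Of all 8317 tested genes 4167 lay below 0 and 4150 above. Both washout libraries were lower than both IAA libraries in 23 members and higher in 5, against 30.7% and 31.4% of all genes. This comparison shares its IAA libraries with the one above, so the values are given side by side and are not independent of it. The falls were in STC2, CHAC1, PPP1R15A, SLC7A5, ATF4, DDIT3, SLC3A2, ASNS, PSAT1, AARS, CARS, MARS, YARS, MTHFD2 and PPP1R15B, and the rises in SLC38A2 and ALDH18A1. On recovered reads 21 of 36 members fell and 2 rose, where 14.8% of all genes fell and 12.2% rose. TPM moved the direction of the calls over all genes from 643 up and 553 down to 792 up and 397 down, with 2 members up and 14 down. Without IAA replicate 1 or 2 the falls came to 1, without washout replicate 1 to 2, without washout replicate 2 to 4, and without either control library to 9. ALDH18A1, MTHFD2, AARS, CARS, YARS, PPP1R15B and MARS, which include all 4 tRNA falls, were called in 0 of the 6 fits that each left out a library. The rises came to 1 without control replicate 1 and to 0 without any other library.

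Among the stress regulators 6 of 8 fell. CHAC1 went from 3.53 ± 0.145 to 1.28 ± 0.266 FPKM, which was 0.364 times its IAA level (log2 change -0.99, limma adjusted p = 0.00994). STC2 fell to 0.423 times (log2 change -1.17, limma adjusted p = 0.00232), PPP1R15A to 0.555 times (-0.81, limma adjusted p = 0.0129) and DDIT3 to 0.595 times (-0.60, limma adjusted p = 0.0142). ATF4 went from 122 ± 1.56 to 78.9 ± 3.97 FPKM, a fall to 0.647 times (-0.62, limma adjusted p = 0.00808). PPP1R15B fell to 0.847 times. On recovered reads SESN2 fell to 0.54 times (voom adjusted p = 9.09e-09). The order by fold was thus CHAC1, STC2, SESN2, PPP1R15A, DDIT3, ATF4 and PPP1R15B.

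Of the amino acid genes 9 fell and 2 rose. SLC7A5 fell to 0.628 times its IAA level (limma, adjusted p = 0.00615), SLC3A2 to 0.677 times (limma, adjusted p = 0.00871), and SLC7A11, on recovered reads, to 0.488 times (voom adjusted p = 1.11e-16). SLC38A2 rose 1.31-fold (limma, adjusted p = 0.0174). PSAT1 fell to 0.716 times and ASNS to 0.731 times (limma, adjusted p = 0.0143 for each), MTHFD2 to 0.844 times (limma, adjusted p = 0.0247), and ALDH18A1 rose 1.15-fold (limma, adjusted p = 0.0417). Of the tRNA genes CARS (0.739 times), AARS (0.795), YARS (0.802) and MARS (0.803) fell (limma, adjusted p from 0.0231 to 0.0407), and all 11 had a log2 change below 0, with a median of -0.16. The remaining 15 tested members were not called, and on recovered reads EPRS, NARS, SARS and SLC1A5 among them fell (voom adjusted p from 6.6e-05 to 0.0056).

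In washout against control 0 of 32 members and 0 of 8317 genes (0.0%) were called by limma on FPKM. At an unadjusted p under 0.05 there were 1 member up and 6 down, and 490 genes up and 260 down. On recovered reads 4 of 36 members were lower after washout and 0 higher, where 0.443% of all genes were lower and 0.357% higher, 0.8% together. These were SLC7A11 at 0.806 times control (voom adjusted p = 0.019), SLC38A2 at 0.904 times (0.0195), YARS at 0.866 times (0.0348) and SLC7A5 at 0.912 times (0.0386). The members' median log2 change was -0.05, with 24 of 32 below 0, and that of all genes 0.01. Of all 8317 tested genes 3690 lay below 0 and 4627 above. Both washout libraries were lower than both control libraries in 15 members and higher in 3, where 17.8% and 24.4% of all tested genes lay so. CHAC1 was at 0.676 times control with washout libraries of 1.1 and 1.47 against 2 and 1.8 (limma adjusted p = 0.524, voom adjusted p = 0.255). DDIT3 was at 1.2 times, ATF4 at 0.901 times, and PPP1R15A at 1.05 times with overlapping groups, and limma called none of these (adjusted p from 0.524 to 0.844).

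Some member values rest on sequence shared with other genes, and the sources used here do not state the strand that was read. DDIT3 and MARS lie on opposite strands and share 355 exon bases, 27.2% of the exon length of DDIT3 and 5.1% of that of MARS. ATF5 shares 21.2% with NUP62, and MTHFD2 shares 27.2% with SLC4A5. Pseudogene copies of some members, recognised here by symbol alone, are listed in the table as genes of their own. Copies held 57.4% of the joint reads of PSAT1 and its 4 copies, 55.9% for XPOT, 42.9% for MTHFD2 and 24.7% for EIF4EBP1. The share was 22.2% for ATF4, 16.6% for PSPH, 4.69% for ASNS and 0.306% for SLC7A5. With copies included, XPOT, EIF4EBP1 and PSPH were at 0.987, 0.97 and 1.07 times control with IAA. Summed with its copies, ATF4 was 1.39 times control with IAA, PSAT1 1.26 times, ASNS 1.29 times and MTHFD2 1.16 times, and after washout these sums were 0.633, 0.716, 0.727 and 0.814 times IAA. The sources used here do not state how reads that fit both were counted.

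Further genes of the pathway put the members beside their surroundings. Of 14 eIF2 kinases, eIF2 and eIF2B genes and their helpers 10 were tested, and 0 were called in IAA against control by limma (0 up and 2 down at an unadjusted p under 0.05). At that unadjusted p 1404 of all 8317 tested genes were up and 1223 down. The kinase HRI (EIF2AK1) was at 1.07 times control (limma adjusted p = 0.184) and PKR (EIF2AK2) at 0.915 times (limma adjusted p = 0.31, voom adjusted p = 0.0418). PERK (EIF2AK3), at 347 and 383 reads in the control pair and 509 and 472 in the IAA pair, rose 1.35-fold on recovered reads (voom adjusted p = 0.00139), and GCN2 (EIF2AK4) was at 1.1 times (voom adjusted p = 0.0915). On recovered reads 1 of the 14 rose and 2 fell, where 14.8% of all genes rose and 10.9% fell. IMPACT, an inhibitor of GCN2 named here after its value was seen, was the other that fell.

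Of 23 other genes linked to ATF4 14 were tested, 6 rose and 1 (FGF19, a secreted growth factor) fell with IAA, and their median log2 change was 0.17. Over all tested genes 6.64% rose and 6.49% fell. HERPUD1, which serves the removal of misfolded proteins from the endoplasmic reticulum, had 2.82 and 2.57 FPKM in the control pair and 6.23 and 5.35 in the IAA pair and rose 2.15-fold (limma, adjusted p = 0.00966). GDF15, a stress hormone, had 9.9 and 9.57 and then 16.6 and 17.2, a 1.74-fold rise (limma, adjusted p = 0.00768). GADD45A, a growth arrest gene, had 17.3 and 15.8 and then 26.3 and 22.7, a 1.48-fold rise (limma, adjusted p = 0.0265). In all of these the groups did not overlap. On recovered reads 11 of 21 rose and 1 fell, where 14.8% of all genes rose and 10.9% fell. The largest rises there, named after their values were seen, were in the stress transcription factor ATF3, with 216 and 199 reads in the control pair and 557 and 508 in the IAA pair (2.58 times, voom adjusted p = 3.68e-12), and in KLHL24 (2.33 times, voom adjusted p = 5.19e-11). After washout 8 of the 14 fell against IAA and 0 rose by limma, and 15 of 21 fell on recovered reads. Of all genes 6.65% fell and 7.73% rose by limma in that comparison, and 14.8% fell on recovered reads. HERPUD1 fell to 0.498 times and GDF15 to 0.505 times (limma, adjusted p = 0.0105 and 0.00458).

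In the neighbouring metabolic lists limma on FPKM called 1 gene with IAA, and more were called on recovered reads, where 14.8% of all genes rose and 10.9% fell. Of 13 other genes of cytosolic synthetases and their complex partners 11 were tested and 0 were called with IAA. At an unadjusted p under 0.05 there were 0 up and 4 down, where 1404 of all 8317 tested genes were up and 1223 down. The median log2 change of this list was 0.00. On recovered reads 4 of 13 fell, the complex partner AIMP2 and the synthetase genes DARS, FARSA and VARS, named after their values were seen. Of 17 mitochondrial synthetases 9 were tested, 0 were called (0 up and 4 down at an unadjusted p under 0.05), and 8 of the 9 had a change below 0. Of all 8317 tested genes 3799 had one below 0. On recovered reads 4 of the 17 fell, AARS2, EARS2, MARS2 and VARS2, also named after their values were seen. Of 18 other amino acid transporters 4 were tested, and SLC7A6, at 3.8 and 3.74 in control against 3.18 and 2.93, fell to 0.81 times (limma, adjusted p = 0.0385). On recovered reads 16 were tested, of which 6 rose and 2 fell. Named after their values were seen, the rises were in SLC6A6, SLC38A9, SLC1A4, SLC3A1, SLC1A1 and SLC7A8 (1.26 to 1.53 times control, voom adjusted p from 3.58e-06 to 0.0263), and SLC38A1 fell beside SLC7A6. Of 13 other one-carbon genes 4 were tested and 0 were called (0 at an unadjusted p under 0.05), and on recovered reads MTHFD1L, again named after its value was seen, fell among 10. These counts can be read beside the 11 rises among 32 members, and the lists were not compared by a test.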

How the data were processed

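Poly(A)-selected RNA from 6 HCT116 libraries was measured by RNA-seq, in 3 groups of 2. The authors deposited FPKM for 31628 genes. The tools named are HISAT, Bowtie2, HTSeq and edgeR on hg19, per the submitters' processing notes, with no version or role stated there. FPKM were whole multiples of 1 read for 88.2% of 7296 low genes (30 reads or fewer) with the gene span as length and for 37.4% with exon length (GENCODE 29, which matched 94.3% of gene IDs). Reads recovered this way were whole within 0.02 reads for 99.95% of 21707 genes above 0, with 4245 taken as the closest whole solution and 585 as the lowest. They summed to 99.6% to 99.81% of the library totals. Replicates differed by more than counting noise, with a chi-square per gene of 2.69 to 3.1.

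Tests on log2(FPKM + 1) used R 4.3.3 and limma 3.58.1, a variance trend, all 6 libraries, no block, 3 residual and 1.81 prior degrees of freedom, two-sided, at a mean FPKM of 1 or more. The alternative on recovered reads used voom. The scripts were tested on simulated data. Alternatives were pseudocounts of 0.1 and 5, no filter, TPM, median scaling, the 2 groups alone, a replicate block, voom, and each library left out.

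The members and gene lists were chosen with earlier results of these data known. Values in every library are given for members called in IAA against control or washout against IAA with a log2 change of at least 0.3 and for ATF4. From other lists at most 3 called genes with the largest changes, and the 4 eIF2 kinases, were named. Promoters were chosen as ATF4 and the 4 largest called rises with the motif, and SLC3A2 is shown by its site alone because that lies after the start.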

Additional observations from a re-analysis of the deposited data

How the results depend on the processing

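No called member value reversed under any setting, and 28 of 1344 member values changed sign with neither value called. IAA against control gave 1092 called genes, against 536 from the 2 groups alone, 3600 by voom on recovered reads, and 50 to 534 with 1 library left out. Members called up were 11, against 19 by voom and 1 to 8 with 1 library left out. Members called down were 1, against 2 with a pseudocount of 0.1, 2 with TPM, 2 with median scaling, 3 by voom and 0 to 1 with 1 library left out. Washout against IAA gave 1196 called genes, against 413 from the 2 groups alone, 3778 by voom, and 46 to 421 with 1 library left out. Members called up were 2, against 0 from the 2 groups alone and 0 to 1 with 1 library left out. Members called down were 15, against 9 from the 2 groups alone and 1 to 9 with 1 library left out. Washout against control gave 0 called genes, against 48 with no filter and 112 by voom, which called 4 members down. The 2 groups alone, the fit with a replicate block and the fits without a library have fewer residual degrees of freedom. The cause of the other shifts was not tested. Of 12 members called in IAA against control 7 were called under every other setting, apart from leaving out a library, and of 17 in washout against IAA 9 were. With a library left out, CARS, PSAT1 and PPP1R15B were called in 0 of 6 fits of IAA against control, and 7 members in 0 of 6 of washout against IAA. NUPR1, CBS and VLDLR had too few reads to compare, and the reason was not tested. A lone library left in a group is assumed to vary like the other groups.

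Samples with the same replicate number did not deviate together over the tested genes. Whether they were set up together is not in the labels, and these values cannot show it. The correlation across 8317 genes of replicate 1 minus replicate 2 was 0.04 between control and IAA, -0.03 between control and washout and 0.01 between IAA and washout. With the replicate number as a block, 486 genes were called in IAA against control, with 6 members up and 1 down. In washout against IAA the block gave 532 genes, with 1 member up and 10 down, and in washout against control it gave 0.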
